A study of Bos taurus with 52 samples.

Results

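The 34 genes described here serve the folding compartment of the secretory pathway, the endoplasmic reticulum (ER), and the unfolded protein response that adjusts its capacity. They were taken by name from a list of 35 genes. The table of read counts names 31651 genes, and 34 of the 35 have a row in it. The remaining listed gene, the sensor ERN1, is not analysed here. All 34 had enough reads to be tested in both tissues.

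Proteins bound for the cell surface or for secretion enter the ER through the SEC61 channel, lose their signal peptide to the signal peptidase complex and fold with the help of chaperones such as HSPA5 (BiP) and HSP90B1 (GRP94). When unfolded protein accumulates, the sensors ERN1 (IRE1), EIF2AK3 (PERK) and ATF6 signal to the transcription factors XBP1 and ATF4. These raise chaperones, degradation factors and, under lasting stress, DDIT3 (CHOP). Uterine glands secrete histotroph, the fluid that nourishes the embryo before attachment, and the elongating trophectoderm of ruminants is itself a strongly secreting epithelium.

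The study measured messenger RNA in bulk tissue of heifers of 3 fertility classes, high (HF), reduced (SF, subfertile) and none (IF, infertile). The sources used here do not say how the class was assigned. Endometrium, the lining of the uterus, came from 5 groups of 5 heifers each. At day 17 of pregnancy there were HF heifers (P-HF) and SF heifers (P-SF). Non-pregnant heifers of each class made up the groups NP-HF, NP-SF and NP-IF, and the sources used here give no cycle day for them. The 27 day 17 conceptuses, meaning the embryo with its trophoblast, fall into 10 labelled long from HF heifers (C-HF-long), 7 labelled short from HF heifers (C-HF-short) and 10 from SF heifers (C-SF). A length was stated for 20 of them. Stated lengths ran from 9 to 17 cm in C-HF-long, 1.2 to 6.9 cm in C-HF-short, and from 1.5 cm into the C-HF-long range in C-SF. The conceptuses came from 19 heifers, and 8 heifers gave a pair with stated lengths. Conceptuses of the same heifer are not independent samples.

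Library totals were 17077635 to 27292222 counted reads in endometrium and 20549492 to 46966995 in conceptuses. In 22 of the 27 conceptuses, title and description do not name the same animal and length. Samples were assigned by title, and results by description are given where they differ. The descriptions also carry sample numbers of 2 sheets, and 20 conceptuses belong to the first and 7 to the second. All 10 C-HF-long libraries are on the first sheet, so the sheet was a term in the conceptus comparisons. The sheet was read from the descriptions while animal and length follow the titles, so the sheet term is open to the same mismatch. A set of 22 interferon-stimulated genes, which the endometrium raises in answer to conceptus interferon, summed to 10040 CPM (read counts scaled to library size) in P-HF replicate 1 and 19660 to 25090 in the other P-HF libraries. The same sum was 28090 in P-SF replicate 5 and 10580 to 16390 in the other P-SF libraries. P-SF replicate 5 was also the highest library of its group for 25 of the 34 members, so results are given with and without it where it matters. The trophectoderm marker list summed to at least 13560 CPM in each conceptus library. Marker sums for plasma cells stayed at or below 7.082 CPM in the conceptuses, and those for 12 uterine-cell genes at or below 42.86.

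The levels of the members in the 2 tissues set the scale for what follows. On CPM scaled within each tissue, the median conceptus level exceeded the median pregnant endometrium level for 27 of 34 members and lay below it for 7. The median ratio was 2.62. For 22 members, each conceptus library lay above each of the 25 endometrium libraries. The share of all genes that lay apart or higher in this way was not counted, so these counts do not set the members off from other genes. Of the 10 heifers with pregnant endometrium, 8 also gave 12 of the conceptus libraries, going by the animal numbers, so the 2 sets share animals. The tissues were extracted with different reagents and scaled apart, and these ratios are a description with no test. With 1 scaling over all 52 libraries, tried after the data were seen, the ratio exceeded 1 for 31 members and its median was 6. The size of these ratios therefore depends on the scaling.

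The 6 highest ratios under within-tissue scaling belonged to members of 4 roles. CRELD2, an ER protein with epidermal-growth-factor-like repeats that is induced by ER stress, ran from 7.67 to 20.2 CPM in endometrium and from 96.4 to 209.3 CPM in conceptuses, a ratio of 11.8 that was the highest. SDF2L1, a co-factor of HSPA5, ran from 3.62 to 8.18 and from 21.7 to 79.96 CPM, a ratio of 8.64. SPCS3, a subunit of signal peptidase, had a ratio of 5.98. Next came P4HB, a disulfide isomerase that also serves as a subunit of the collagen prolyl hydroxylase, with 5.12. HSPA5 and MANF, a secreted luminal protein with neurotrophic activity, had ratios of 4.95 and 4.94. HSPA5 lay between 299.5 and 459.7 CPM in endometrium and between 1031 and 3081 CPM in conceptuses.

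The lowest ratios were those of DDIT3, ATF4 and HERPUD1. DDIT3, the transcription factor linked to cell death under lasting stress, was at 25.3 to 45.98 CPM in endometrium and at 0.70 to 6.86 CPM in conceptuses, a ratio of 0.0993. ATF4, which is translated when the initiation factor eIF2 is phosphorylated, was at 274.4 to 417.7 and at 51.7 to 162 CPM, a ratio of 0.287. HERPUD1, a membrane protein of ER-associated degradation and a target of ATF4 and ATF6, had a ratio of 0.38. Under within-tissue scaling these were the 3 members whose conceptus libraries all lay below all endometrium libraries, again with no share of all genes counted. Their ratios were 0.228, 0.652 and 0.905 under the joint scaling. XBP1, the other transcription factor of the response, had a ratio of 1.12, or 2.55 under it, with overlapping ranges. PDIA3, EIF2AK3, ATF6 and SPCS1 had ratios of 0.692, 0.975, 0.834 and 0.477 that turned to 1.59, 2.25, 1.87 and 1.09 under it, so no direction is given for them.

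**Figure D1:**
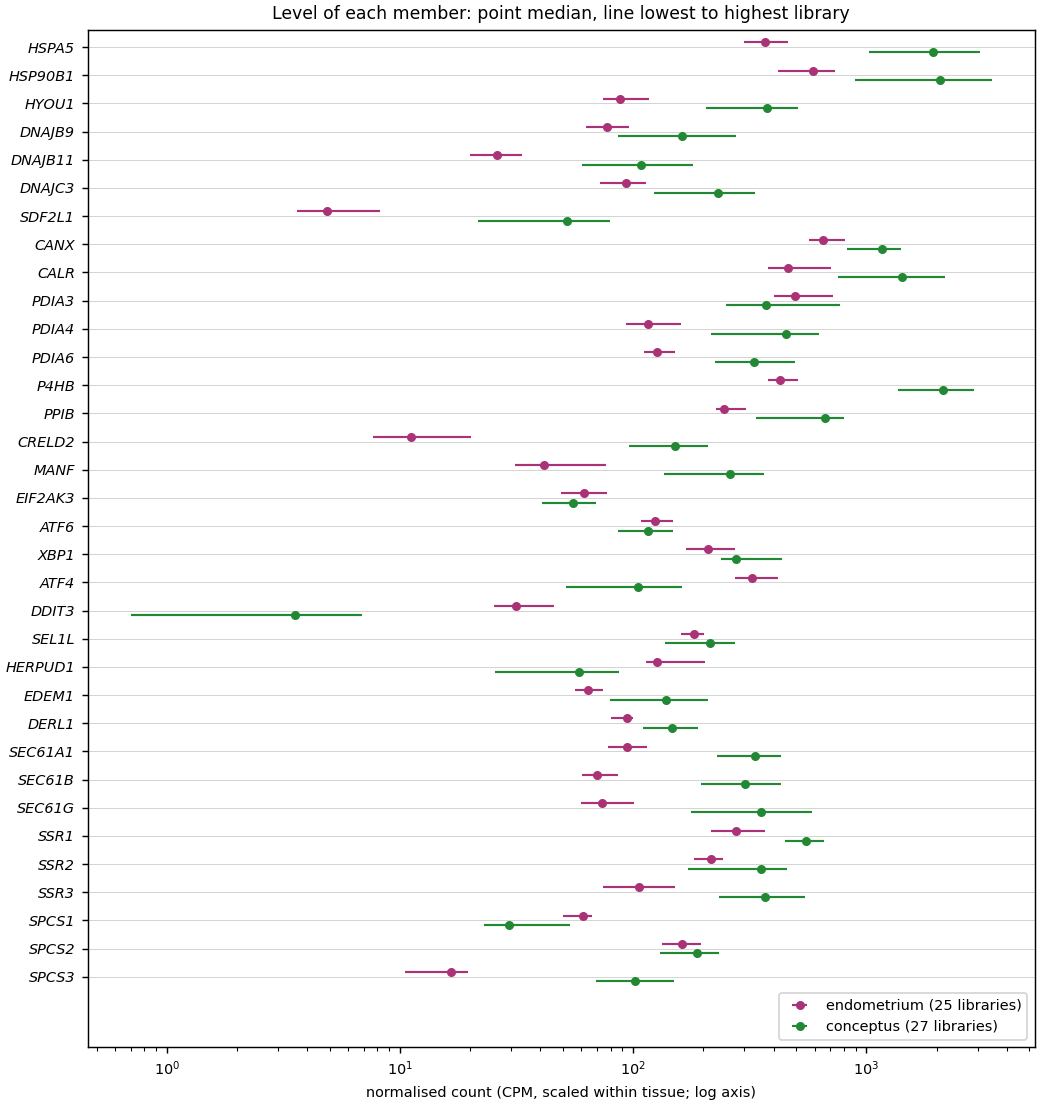
Normalised count in CPM, scaled within each tissue, on a log axis for each of the 34 members. Points are medians over 25 endometrium or 27 conceptus libraries and lines run from the lowest to the highest library. CRELD2 and SDF2L1 lie far to the right in conceptuses, while DDIT3, ATF4 and HERPUD1 lie to the left. Levels are not per length, so they are to be compared within a row and not between genes.

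In pregnant HF heifers MANF, ATF4, XBP1, DDIT3, SDF2L1 and ATF6 were higher, and SSR1 and EIF2AK3 lower, than in non-pregnant ones. In P-HF against NP-HF, 8 of 34 members passed the test (edgeR quasi-likelihood test, adjusted p under 0.05 over all genes), with 6 up and 2 down in pregnancy. This is 23.5% of the members, beside 20.8% of all 19606 genes tested, so the members were called about as often as genes in general. The median log2 difference was 0.07 over the members and -0.01 over all genes. By role, which is a description with no test of the groups, 4 of the 5 sensors and transcription factors were higher and the fifth was lower. Of the 9 translocon and signal peptidase genes 1 was lower, and none of the 4 degradation genes or the 5 disulfide and prolyl isomerases passed.

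MANF rose most among the members. It was at 39.0, 36.1, 36.6, 43.5 and 40.8 CPM in the NP-HF heifers and at 52.96, 66.2, 67.5, 48.2 and 65.0 CPM in the P-HF heifers. No pregnant library overlapped a non-pregnant one. The share of all genes without overlap was not counted here or for the members below. A lack of overlap thus does not set them off from other genes. The increase of MANF was 0.61 ± 0.13 (SE) on the log2 scale, or 1.53-fold (edgeR adjusted p = 0.0012, n = 5 each). The other luminal protein of its class, CRELD2, had means of 11 ± 1.37 and 14.3 ± 3.89 CPM (SD, n = 5). The pregnant CRELD2 values ran from 9.36 to 20.2 CPM across those of the non-pregnant heifers, and the difference of 0.38 ± 0.15 missed the threshold (edgeR adjusted p = 0.077).

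Among the transcription factors, ATF4 was at 307.4, 286.9, 291.4, 319.1 and 309.9 CPM in NP-HF and at 408.3, 375.3, 363, 357.8 and 383.3 CPM in P-HF. The groups lay apart by a gap wider than the spread within NP-HF, and ATF4 rose by 0.32 ± 0.07 log2 (edgeR adjusted p = 0.0017). XBP1, which becomes an active factor when ERN1 splices its messenger, was at 194.1, 184.6, 185.6, 197 and 233 CPM in NP-HF and at 270.6, 256.2, 248.6, 253.4 and 245.6 CPM in P-HF. NP-HF replicate 5 came nearest to the pregnant range without reaching it. XBP1 rose by 0.36 ± 0.08 log2 (edgeR adjusted p = 0.003), and gene counts do not tell its spliced from its unspliced form.

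DDIT3 was at 33.2, 27.7, 29.3, 33.1 and 27.3 CPM in NP-HF and at 34.5, 36.8, 45.98, 45.9 and 44.2 CPM in P-HF. All 5 pregnant libraries lay above the non-pregnant ones, the lowest by a small margin. The rise was 0.46 ± 0.12 log2 (edgeR adjusted p = 0.0074). In RefSeq the DDIT3 locus overlaps MARS1, a transfer RNA synthetase gene, and the sources used here do not say how reads were assigned there.

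Of the membrane sensors, ATF6 and EIF2AK3 were measured, and their differences had opposite signs. ATF6, which is cleaved in the Golgi to release a transcription factor, was at 124, 128.7, 118.9, 115.8 and 122.9 CPM in NP-HF and at 147.4, 148.2, 130.6, 142.4 and 138.7 CPM in P-HF. The ranges met within a few CPM without overlapping, and the rise of 0.21 ± 0.08 log2 passed narrowly (edgeR adjusted p = 0.049). It missed the threshold under 14 of 16 alternative settings, whose adjusted p ran from 0.035 to 0.103. EIF2AK3, the kinase that phosphorylates eIF2, was at 62.9, 77.3, 59.8, 70.2 and 71.1 CPM in NP-HF and at 56.2, 56.1, 56.7, 61.3 and 49.0 CPM in P-HF. Its lowest non-pregnant library fell inside the pregnant range, and it fell by 0.29 ± 0.08 log2 (edgeR adjusted p = 0.013, between 0.0063 and 0.052 over 16 alternatives).

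**Figure D2:**
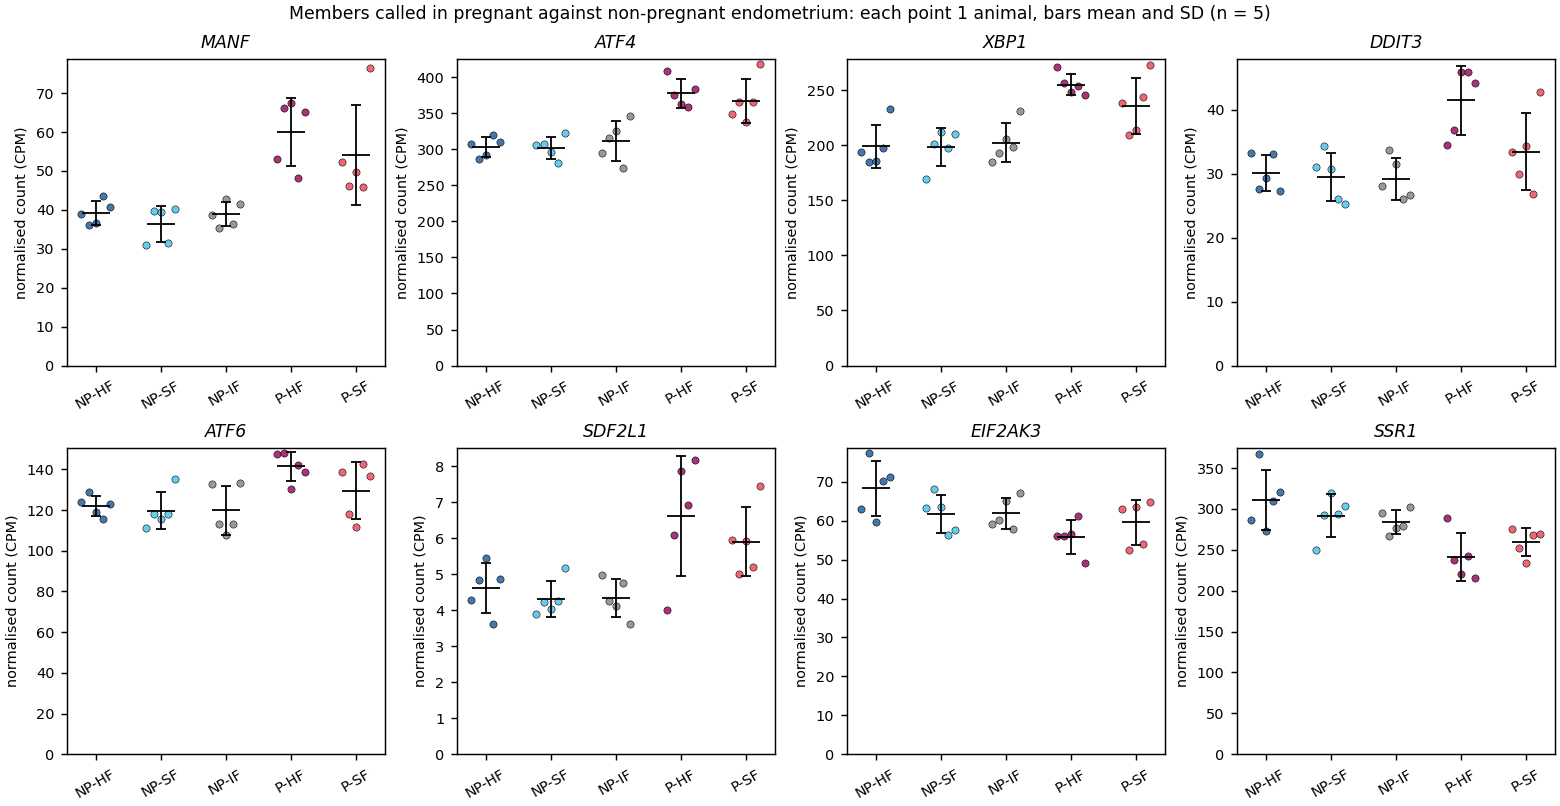
Normalised count in CPM of the called endometrium members in each heifer of the 5 endometrium groups, with the group mean and SD as bars. MANF, ATF4, XBP1, DDIT3 and ATF6 lie higher in pregnant than in non-pregnant HF heifers without overlap, and SSR1 and EIF2AK3 lie lower with overlap. The share of all genes without overlap was not counted. The highest MANF value is 76.5 CPM in P-SF replicate 5.

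Of the Hsp70 and Hsp90 chaperones and their co-chaperones, 1 of 7 passed. SDF2L1 was at 4.29, 4.85, 5.46, 3.62 and 4.86 CPM in NP-HF and at 4.0, 6.10, 7.86, 6.92 and 8.18 CPM in P-HF. P-HF replicate 1, the library with the low interferon-stimulated sum, lay within the non-pregnant range and the other 4 lay above it. SDF2L1 rose by 0.52 ± 0.17 log2 (edgeR adjusted p = 0.03, up to 0.115 over 16 alternatives, 6 of which ended the call). The major chaperones were nearly level. HSPA5 averaged 374.7 ± 23.3 CPM in NP-HF and 395.1 ± 43.1 CPM in P-HF (SD, n = 5, difference 0.08 ± 0.10 log2, edgeR adjusted p = 0.643). HSP90B1 averaged 612.1 ± 57.2 and 621.2 ± 33.8 CPM (difference 0.02 ± 0.11, edgeR adjusted p = 0.916).

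The lectin chaperones CANX and CALR, which hold glycoproteins during folding, differed by 0.16 ± 0.08 and 0.14 ± 0.12 log2 (edgeR adjusted p = 0.146 and 0.448). Of the 5 disulfide and prolyl isomerases, 4 had negative differences, the farthest from 0 being P4HB at -0.16 ± 0.08 (edgeR adjusted p = 0.15). PPIB, the cyclophilin that also acts on collagen, differed by -0.15 ± 0.08 (edgeR adjusted p = 0.202). HERPUD1 was the nearest to a call among the degradation genes, at 0.33 ± 0.13 (edgeR adjusted p = 0.071). SEL1L, EDEM1 and DERL1, which bring misfolded proteins to the membrane channel for degradation, differed by -0.03, -0.11 and 0.01.

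The translocon-associated TRAP complex split. SSR1, its alpha subunit, was at 286.1, 367.2, 272.5, 310 and 321 CPM in NP-HF and at 289.4, 237.4, 220.1, 241.9 and 216.1 CPM in P-HF. P-HF replicate 1 lay within the non-pregnant range and the other 4 lay below it. SSR1 fell by 0.37 ± 0.09 log2 (edgeR adjusted p = 0.0036). The gamma subunit SSR3 differed by 0.30 ± 0.12 in the other direction without passing (edgeR adjusted p = 0.075), and the beta subunit SSR2 by -0.14 ± 0.07 (edgeR adjusted p = 0.138). The difference between subunits was not tested. The 3 SEC61 genes and the 3 signal peptidase subunits ran from -0.06 to 0.19 with no call.

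With P-HF replicate 1 and P-SF replicate 5 both left out, 10 members passed between P-HF and NP-HF. CRELD2, HERPUD1 and SSR3 were added and ATF6 was lost. P-HF replicate 1 held the lowest CRELD2 and SSR3 values of its group, so leaving it out widens those differences. In a fit of these 2 groups alone 5 passed, namely ATF4, DDIT3, MANF, SSR1 and XBP1. The same 5 passed under each of the 16 alternatives tried for this comparison.

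Cell type markers moved with this comparison. Of 14 stromal markers 10 fell, and their sum was 13830 to 26870 CPM in NP-HF and 5761 to 9213 CPM in P-HF, and COL3A1 fell by 1.88 ± 0.24 log2 and COL1A2 fell by 1.55 ± 0.23. Of 15 epithelial markers 3 rose, CDH1 and CLDN4 among them, and the sum was 1220 to 1634 in NP-HF and 1797 to 2028 CPM in P-HF. Of 15 immune markers 4 rose and 1 fell, and of 10 endothelial markers 3 fell. All 22 interferon-stimulated genes rose, from sums of 733.2 to 1160 CPM in NP-HF. In bulk tissue, fewer cells of a type and less RNA per cell cannot be told apart, and the part of these markers in the members' differences was not tested.

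Pregnancy in SF heifers gave 2 calls of 34, MANF and ATF4, both higher. This is 5.88% of the members beside 4.07% of all genes tested. MANF was at 31.0, 39.8, 39.4, 31.5 and 40.2 CPM in NP-SF and at 52.4, 46.0, 49.6, 46 and 76.5 CPM in P-SF. The groups did not overlap, P-SF replicate 5 stood well above the rest, and MANF rose by 0.57 ± 0.13 log2 (edgeR adjusted p = 0.0079). Without that library the difference was 0.42 (edgeR adjusted p = 0.035).

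ATF4 was at 305.5, 306.6, 295.5, 281.2 and 322.3 CPM in NP-SF and at 349, 365.5, 338.3, 364.8 and 417.7 CPM in P-SF. Again no library overlapped, and the share of all genes without overlap was not counted for the SF groups either. ATF4 rose by 0.28 ± 0.07 log2 (edgeR adjusted p = 0.016). The call ended without P-SF replicate 5 (0.23, edgeR adjusted p = 0.078) and without NP-SF replicate 4 (0.26, edgeR adjusted p = 0.056). A fit of the SF groups alone gave neither call, with edgeR adjusted p of 0.06 for MANF and 0.064 for ATF4.

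The remaining SF values were mostly on the positive side, 28 of 34 in all, with a median of 0.13 log2 beside -0.01 over all genes. Without P-SF replicate 5, 25 of 34 were positive and the median was 0.07. The NP-SF reference itself lay below NP-HF for 31 of 34 members. Within NP-SF, replicates 1 and 4 held the lowest value for 20 and 10 members. Members are measured in the same libraries, so the sign count is not evidence from 34 separate tests. With all libraries XBP1 differed by 0.25 ± 0.08 (edgeR adjusted p = 0.09), SSR3 by 0.35 ± 0.12 (0.115), PDIA3 by 0.29 ± 0.10 (0.118) and SDF2L1 by 0.45 ± 0.17 (0.154). Without P-SF replicate 5 the 4 differences were 0.19, 0.26, 0.18 and 0.35 (edgeR adjusted p = 0.312, 0.357, 0.416 and 0.41). DDIT3 was at 25.3 to 34.4 CPM in NP-SF and 26.8 to 42.7 CPM in P-SF, ranges that overlapped. EIF2AK3 and SSR1, both lower in pregnant HF heifers, differed by -0.05 ± 0.08 and -0.17 ± 0.09 (edgeR adjusted p = 0.821 and 0.335). None of 14 stromal markers passed here, with sums of 12040 to 18100 CPM in NP-SF and 10810 to 13750 CPM in P-SF. Of 15 immune markers 2 rose, AIF1 by 0.93 ± 0.18 and CD74 by 0.65 ± 0.18 log2, and the sum was 358.6 to 505.5 CPM in NP-SF and 528.6 to 890.7 CPM in P-SF. Of 15 epithelial markers 1 rose, CDH1 by 0.48 ± 0.14, with sums of 1100 to 1732 and 1532 to 1838 CPM. All 22 interferon-stimulated genes rose. The part of these markers in the MANF and ATF4 differences was not tested.

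**Figure D3:**
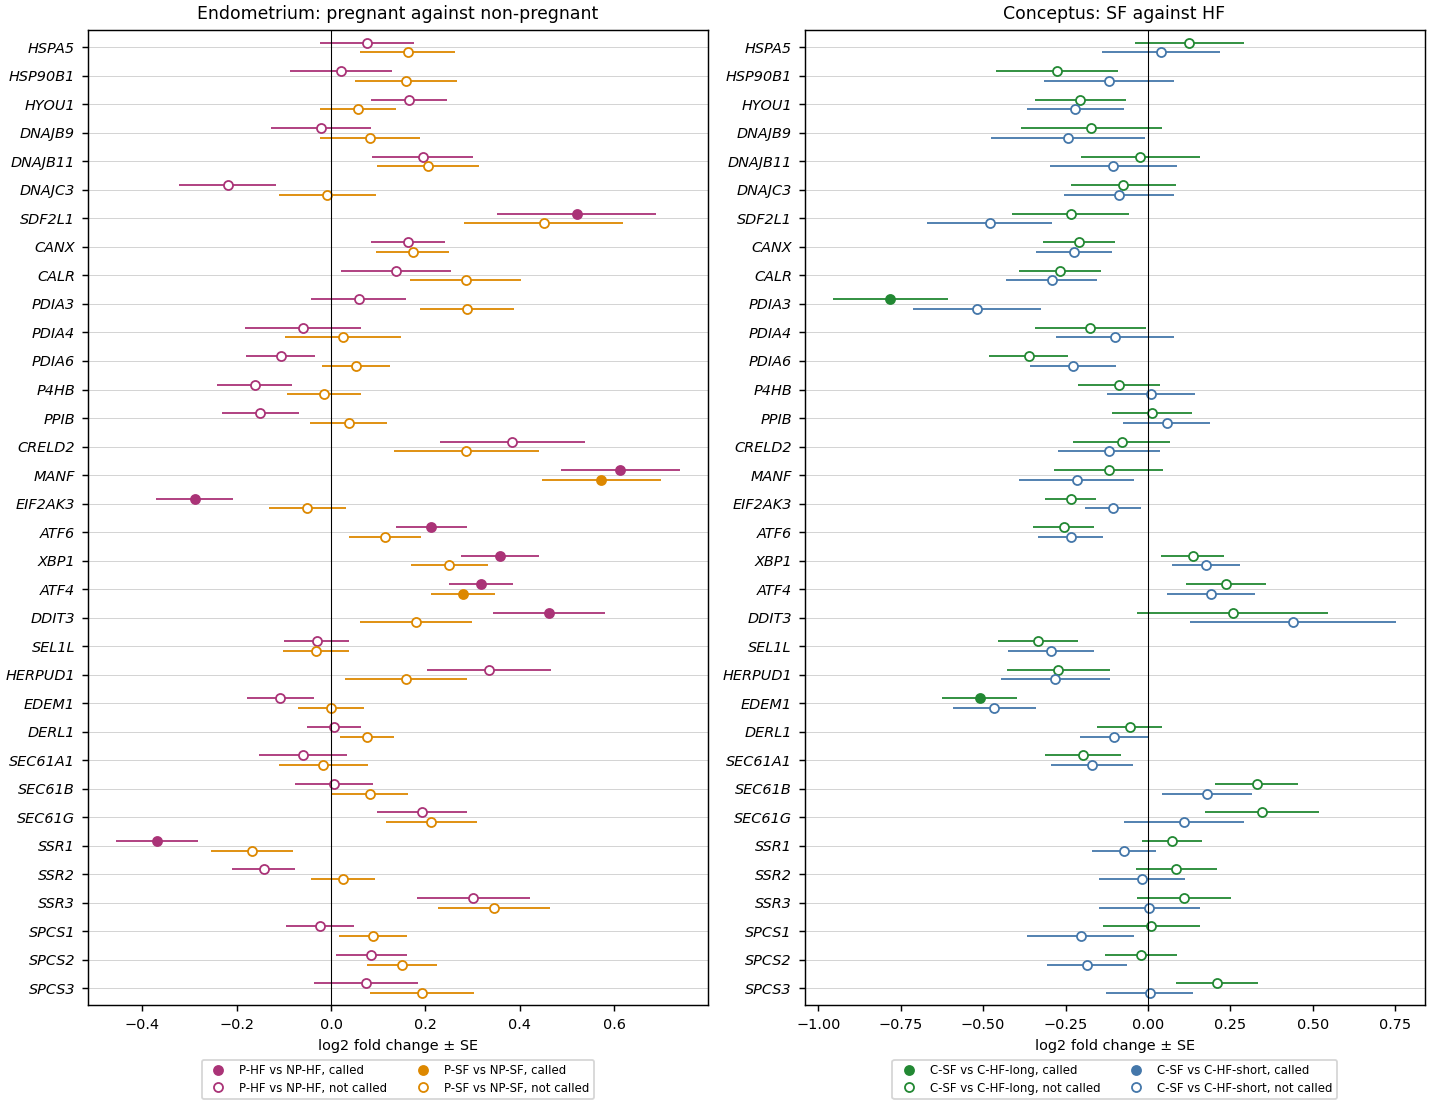
Log2 difference of each member between pregnant and non-pregnant endometrium in HF and SF heifers, and between C-SF and each of C-HF-long and C-HF-short conceptuses. Bars are 1 SE and called members are marked. MANF and ATF4 are called in both fertility classes, and PDIA3 and EDEM1 lie farthest to the left in C-SF against C-HF-long.

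Whether the pregnancy difference itself differed by class was tested as an interaction. None of the 34 members passed in edgeR, beside 0.0051% of all genes, or 1 gene. DESeq2 and limma-voom gave 0 member calls too, and 1 member had an unadjusted p under 0.05, beside 6.81% of all genes. That member was EIF2AK3, whose SF difference exceeded its HF difference by 0.24 ± 0.12 log2 (edgeR adjusted p = 0.731). SSR2 followed with 0.17 ± 0.10 and DDIT3 with -0.28 ± 0.17 (edgeR adjusted p = 0.785 and 0.799). For MANF and ATF4 the interaction was -0.04 ± 0.18 and -0.04 ± 0.10 (edgeR adjusted p = 0.986 and 0.974). A difference in response between the classes was therefore not detected for any member with 5 heifers in each group, and the standard errors do not exclude one.

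The direct class comparisons in endometrium gave no member call in edgeR, DESeq2 or limma-voom. Between P-SF and P-HF, 0 of 34 members and 0% of all genes passed in edgeR, and 2 members had an unadjusted p under 0.05, beside 10.1% of all genes. DESeq2 called 95 genes there. DDIT3 was 33.5 ± 6.01 CPM in P-SF and 41.5 ± 5.40 CPM in P-HF (SD, n = 5), a difference of -0.31 ± 0.12 log2 (edgeR adjusted p = 0.39). With P-HF replicate 1 and P-SF replicate 5 both left out, 3.21% of genes passed. DDIT3 was the single member among them, lower in P-SF at -0.47 (edgeR adjusted p = 0.026). Those 2 libraries held the lowest DDIT3 value of P-HF (34.5 CPM) and the highest of P-SF (42.7 CPM). Leaving them out therefore widens this difference by construction, and the call is no separate evidence for it. With all libraries SSR2 differed by 0.15 ± 0.07 and SPCS3 by 0.20 ± 0.11 (edgeR adjusted p = 0.459 and 0.546).

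Among the non-pregnant heifers, NP-SF against NP-HF again gave 0 of 34 members and 0% of all genes in edgeR. DESeq2 called 4 genes, and 0 members had an unadjusted p under 0.05 beside 3.62% of genes. The differences were nonetheless mostly on the same side, negative for 31 of 34. The 3 smallest p-values belonged to PDIA3 at -0.20 ± 0.10, HSP90B1 at -0.22 ± 0.11 and PDIA6 at -0.14 ± 0.07 log2 (edgeR adjusted p = 0.999 each). Members are measured in the same libraries, so a common sign over them is not evidence from 34 separate tests.

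NP-IF against NP-HF gave 0 of 34 members and 0% of genes in edgeR, with 2 genes called by DESeq2 and 6 members at an unadjusted p under 0.05 beside 5.46% of genes. Here 30 of 34 differences were negative. PPIB, at 245.1 to 305.6 CPM in the NP-HF heifers and 227.3 to 243.7 CPM in the NP-IF heifers, was the single member whose groups did not overlap. The share of all genes without overlap was not counted, so this is not read as a separation beyond that of other genes. PPIB differed by -0.23 ± 0.08 log2, with PDIA6 at -0.18 ± 0.07 and P4HB at -0.19 ± 0.08 (edgeR adjusted p = 0.903 each). Both contrasts share the NP-HF libraries as their reference. NP-IF against NP-SF gave 0 of 34 members and 0% of genes in edgeR, with 10 genes called by DESeq2 and 0 members at an unadjusted p under 0.05 beside 4% of genes. SSR2, DERL1 and PPIB had the smallest p-values there, at -0.12, 0.09 and -0.12 log2 (edgeR adjusted p = 0.999 each).

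In the conceptuses, C-SF differed from C-HF-long in 2 of 34 members, both lower in C-SF. This is 5.88% of the members, beside 8.9% of all 16330 genes tested. PDIA3 (ERp57), the isomerase that works with the lectin chaperones on glycoproteins, had a lowest, median and highest value of 353.8, 536.3 and 770.7 CPM in C-HF-long, 299.9, 391.7 and 699.4 in C-HF-short, and 249.8, 304.1 and 431.7 in C-SF. The C-SF and C-HF-long ranges overlapped, although the C-SF median lay below the whole C-HF-long range. PDIA3 fell by 0.78 ± 0.17 log2, to 0.582 of the C-HF-long level (edgeR adjusted p = 0.011, 10 libraries each). The 10 C-SF libraries came from 7 heifers, and this fit treated conceptuses of the same heifer as separate. In RefSeq PDIA3 overlaps CATSPER2.

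EDEM1, a lectin that hands misfolded glycoproteins to degradation, ran through 109.9, 154.2 and 185.4 CPM in C-HF-long, 125.7, 142.5 and 208.9 in C-HF-short, and 79.2, 108.2 and 139 in C-SF. Again the C-SF median lay below the range of C-HF-long while the ranges overlapped. EDEM1 fell by 0.51 ± 0.11 log2, to 0.702 of the C-HF-long level (edgeR adjusted p = 0.011). Both calls held within the first sheet, where PDIA3 differed by -0.73 and EDEM1 by -0.47 (edgeR adjusted p = 0.02 and 0.023). With the heifer as a random block in limma-voom, PDIA3 differed by -0.75 and EDEM1 by -0.52 (limma adjusted p = 0.037 and 0.033). With the libraries assigned by their descriptions, the differences were -0.78 and -0.48 and no gene of the table passed (edgeR adjusted p = 0.383 for both).

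The other degradation genes also had negative differences, with SEL1L, the adaptor of the HRD1 ubiquitin ligase, at -0.33 ± 0.12 (edgeR adjusted p = 0.079) and HERPUD1 at -0.27 ± 0.16 (0.264). Just short of the threshold were EIF2AK3 at -0.23 ± 0.08 (0.055), PDIA6 at -0.36 ± 0.12 (0.057) and ATF6 at -0.25 ± 0.09 (0.078). EIF2AK3 and PDIA6 also passed in DESeq2 and without the sheet term. HSPA5 did not separate the groups, with medians of 2029, 1987 and 1882 CPM in C-HF-long, C-HF-short and C-SF and a C-SF range of 1122 to 3081 CPM. Of the 9 translocon and signal peptidase genes 7 had positive values, led by SEC61G at 0.35 ± 0.17 and SEC61B at 0.33 ± 0.13 (edgeR adjusted p = 0.198 and 0.094). Over all members the median was -0.08 log2, with 22 negative, beside 0.03 over all genes.

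**Figure D4:**
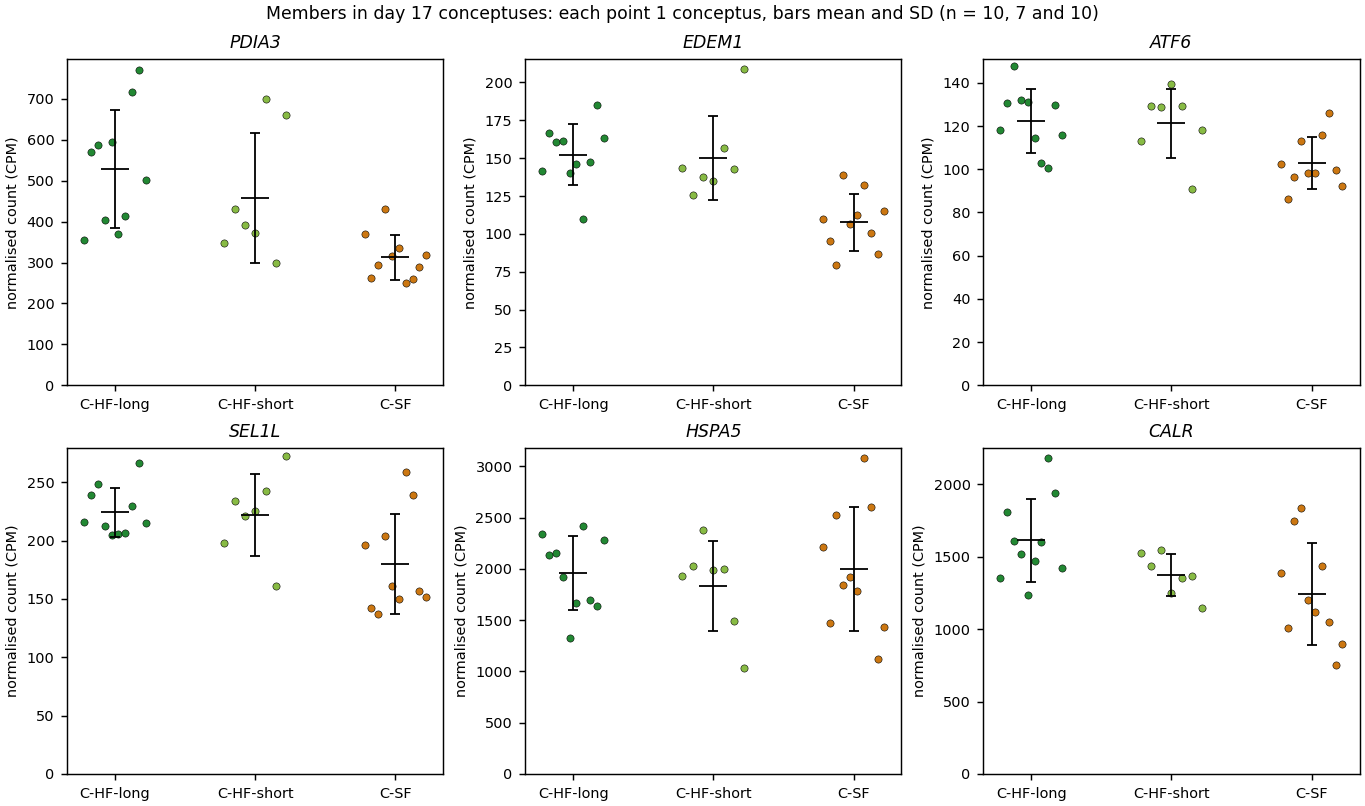
Normalised count in CPM of PDIA3, EDEM1, ATF6, SEL1L, HSPA5 and CALR in each conceptus library of the 3 conceptus groups, with group means and SD. The PDIA3 and EDEM1 points of C-SF sit mostly below those of C-HF-long, while the HSPA5 points of the 3 groups cover much the same range.

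Markers moved here too. Of 16 trophectoderm markers 4 were lower in C-SF, GATA3 and DLX3 among them, with sums of 18220 to 51220 CPM in C-SF and 26270 to 48990 CPM in C-HF-long. Of 12 stromal markers tested 4 were lower, but their sum was small in both groups, 7.80 to 119 and 13.1 to 89.7 CPM. Of 15 epithelial markers 3 were lower, OVOL1 and ESRP2 among them, and none passed as higher. Yet 9 of the 15 had positive differences, with a median of 0.23 log2. Their sums were 15150 to 37520 CPM in C-SF and 14760 to 29990 CPM in C-HF-long. Of 13 endoderm markers AMN was higher, at 1.34 ± 0.39 log2, and GATA6 lower, at -0.53 ± 0.17. HAND1 of the embryonic disc and mesoderm list was lower, at -3.37 ± 0.77. The list as a whole went the other way, with 5 of 6 tested genes positive and a median of 1.35 log2. The endothelial TIE1 was higher, at 2.13 ± 0.54, while 3 of 6 tested endothelial genes were positive and 3 negative. Endothelial sums were small, 8.13 to 38.1 CPM in C-SF and 19.1 to 58.9 CPM in C-HF-long. Of 8 uterine-cell markers tested OXTR was higher and 2 were lower, COL1A1 among them. The part of these markers in the PDIA3 and EDEM1 differences was not tested. The C-SF conceptuses were also shorter where lengths were stated, with a median of 4 cm where the shortest C-HF-long conceptus was 9 cm, so class and length cannot be told apart in this comparison.

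C-SF against C-HF-short compared groups nearer in length, with a median of 2.15 cm in C-HF-short. It gave 0 of 34 members in edgeR, DESeq2 and limma-voom, beside 0.00612% of genes, or 1 gene, in edgeR. At an unadjusted p under 0.05 there were 6 members, beside 8.99% of genes. EDEM1 and PDIA3 again had the smallest p-values, at -0.47 ± 0.12 and -0.52 ± 0.19 log2 (edgeR adjusted p = 0.172 and 0.396), and SDF2L1 followed at -0.48 ± 0.19 (0.436). Both comparisons use the same C-SF libraries, so the shared sign is not independent. On the first sheet alone EDEM1 differed by -0.26 and PDIA3 by -0.24, and on the second by -0.70 and -0.84. With the libraries assigned by description, EDEM1 differed by -0.04 and PDIA3 by 0.0023, while SDF2L1 differed by -0.55 (edgeR adjusted p = 1 each). C-HF-short against C-HF-long gave 0 of 34 members and 0% of genes in edgeR. DESeq2 called 2 genes, and 0 members had an unadjusted p under 0.05 beside 3.67% of genes. SPCS3, EIF2AK3 and SSR1 had the smallest p-values there, at 0.20, -0.13 and 0.15 log2 (edgeR adjusted p = 0.933 each).

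Along the stated length of 20 conceptuses, the slope per doubling of length gave 0 of 34 members and 0% of all 15592 genes tested in edgeR. DESeq2 called 45 genes and no member, limma-voom called 0 genes, and 1 member had an unadjusted p under 0.05 beside 11.9% of genes. That member was P4HB, with 0.16 ± 0.07 log2 per doubling (edgeR adjusted p = 0.399). CRELD2 followed with 0.17 ± 0.08 and SPCS2, a signal peptidase subunit, with -0.11 ± 0.06 (edgeR adjusted p = 0.421 and 0.465). Assignment by description gave slopes of 0.06 for P4HB, 0.06 for CRELD2 and 0.16 for SPCS2. On the first sheet alone the P4HB and CRELD2 slopes were 0.10 and 0.07, and on the second 0.35 and 0.49, with no call on either. Without the sheet term 3 members passed, namely ATF4, SDF2L1 and SSR2, beside 2.67% of genes. The SPCS2 slope was then 0.0060.

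**Figure D5:**
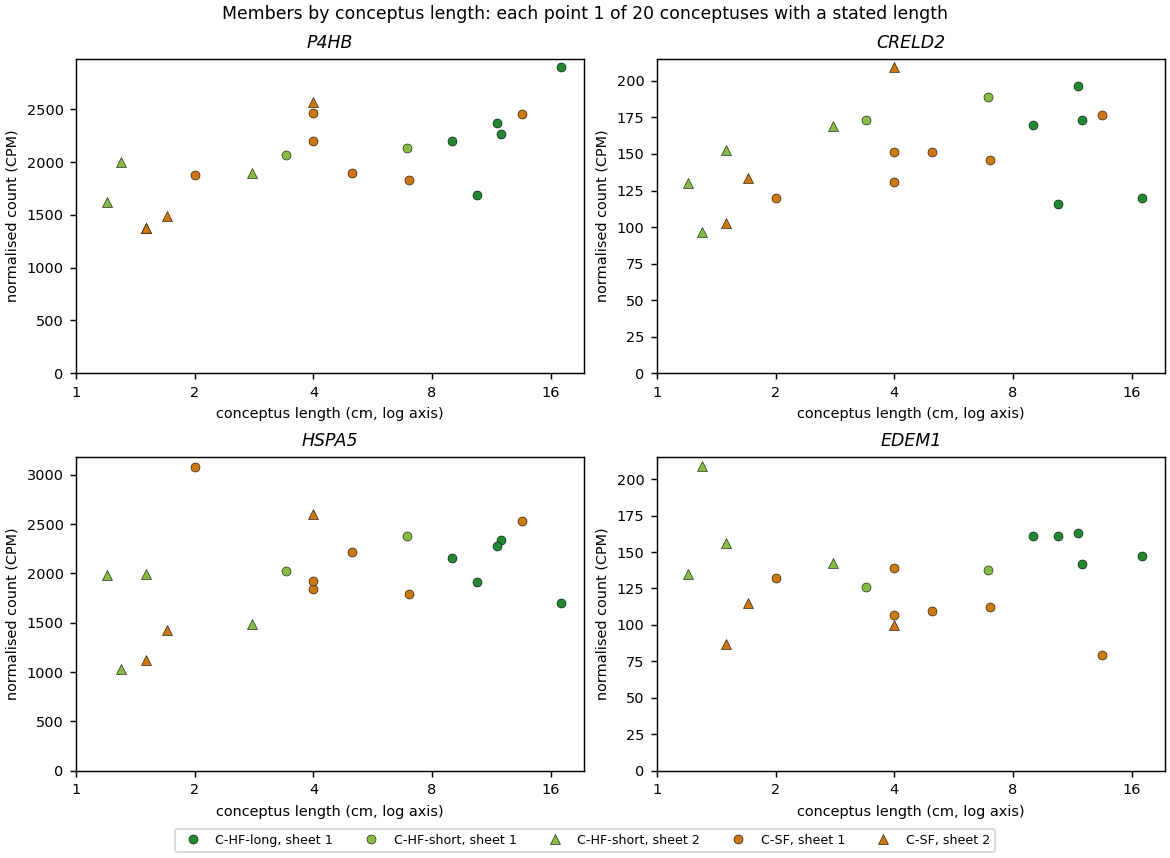
Normalised count in CPM of P4HB, CRELD2, HSPA5 and EDEM1 against stated conceptus length in cm on a log axis, for the 20 conceptuses with a length. Colours mark the groups and shapes the sample sheets, and the P4HB and CRELD2 points scatter widely around a shallow rise that did not pass the test.

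The 8 heifers with a pair of measured conceptuses allow a look at length within a uterus. These pairs include 4 of a short and a long HF conceptus, 3 of SF conceptuses and 1 of short HF conceptuses. DDIT3 and ATF4 were higher in the longer conceptus in 7 of 8 pairs, with median differences of 0.66 and 0.33 log2 and pair values from -0.24 to 2.16 and from -0.10 to 1.04. SPCS3 was higher in the longer conceptus in 1 of 8, with a median of -0.22 and pair values from -0.67 to 0.06. P4HB, positive along length over all 20, was higher in the longer conceptus in 3 of 8 pairs. PDIA3 and EDEM1 were each higher in 6 of 8. These counts are a description with no test, and in 3 of the 8 pairs the conceptuses were on different sheets.

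The spread within groups differed between tissues and members. The median coefficient of variation within a group was 8.8% over the members in endometrium, from 3.6% for DERL1 to 15.1% for SDF2L1. In the conceptuses it was 19%, from 9.68% for EIF2AK3 to 38.1% for DDIT3. Smaller differences could thus be called in endometrium than in conceptuses.

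Other genes of the pathway were read from 5 lists of 112 tested genes, chosen with earlier results of these data known. In P-HF against NP-HF 30 of the 112 passed, of which 21 rose and 9 fell. This is 26.8% beside the 20.8% of all genes, with no test of the lists. The largest share was among further stress regulators and targets, where 10 of 27 rose and 2 fell. WARS, a transfer RNA synthetase that interferons also induce, rose by 1.68 ± 0.21 log2 and NUPR1, a stress-induced nuclear protein, by 2.23 ± 0.38 (edgeR adjusted p = 5.8e-06 and 0.00019). MBTPS1, the Golgi protease that makes the first cleavage of ATF6, fell by 0.56 ± 0.08 (edgeR adjusted p = 4.4e-05). In SF heifers 5 of these 27 rose and 1 fell, with WARS up by 1.37 ± 0.21, SARS, another synthetase, up by 0.43 ± 0.10 and MBTPS1 down, at -0.45 ± 0.08 (edgeR adjusted p = 0.00015, 0.017 and 0.0014).

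Further degradation genes rose in HF pregnancy in 6 of 20 cases with none lower, led by the ubiquitin-conjugating enzyme UBE2J2 at 0.37 ± 0.07, the ligase SYVN1 (HRD1) at 0.41 ± 0.12 and AUP1 at 0.25 ± 0.08 (edgeR adjusted p = 0.00058, 0.022 and 0.03). Of the 20 further folding enzymes 2 rose and 3 fell, the latter FKBP14 (-0.68 ± 0.09), FKBP7 (-0.75 ± 0.14) and UGGT2 (-0.77 ± 0.18). Of 27 translocation and N-glycosylation genes 2 rose, SRP14 and SEC11C, and 1 fell, the oligosaccharyltransferase subunit STT3A at -0.36 ± 0.05. Of 18 genes of ER exit and retrieval 1 rose, SEC24B, and 3 fell, TMED10 and SEC24D among them at -0.46 ± 0.08 and -0.50 ± 0.10. In SF heifers EDEM2 rose by 0.42 ± 0.09 and FKBP14 fell by 0.39 ± 0.09, and 8 of 112 passed in all, or 7.14% beside 4.07% of all genes.

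Calls in a further pair of lists were read beside the 10.2% of all genes that rose and the 10.6% that fell in HF pregnancy, with no test of either list. These lists too were chosen with earlier results of these data known, so their shares are a description. Of 14 collagen folding helpers 11 fell and none rose. CRTAP, a partner of the collagen prolyl 3-hydroxylase, and P3H4, a relative of that enzyme, fell by 1.51 ± 0.20 and 1.03 ± 0.18, and FKBP10, a collagen prolyl isomerase, by 1.35 ± 0.15 log2 (edgeR adjusted p = 8.3e-06, 0.00031 and 9.4e-07). In SF heifers 2 of 14 fell, CRTAP at -0.75 ± 0.19 and FKBP10 at -0.56 ± 0.15. The stromal sum given above moved with these genes, and its part was not tested. Of 25 cytosolic and mitochondrial chaperones 12 rose in HF pregnancy and none fell, while 13 did not pass. Among those that rose were CCT2 of the cytosolic chaperonin at 0.48 ± 0.09, the mitochondrial HSPA9 at 0.45 ± 0.10 and DNAJA1 at 0.86 ± 0.18 (edgeR adjusted p = 0.00049, 0.0015 and 0.0017). In SF heifers none of these 25 passed in edgeR, with 24 of 25 on the positive side. The interaction called no gene of either list.

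In C-SF against C-HF-long conceptuses 8 of 111 further pathway genes passed, 2 higher and 6 lower, or 7.21% beside the 8.9% of all genes. ATF6B, the paralogue of ATF6, fell by 0.97 ± 0.21 log2, and CREB3, a related membrane-bound factor, by 0.62 ± 0.17 (edgeR adjusted p = 0.0095 and 0.027). SESN2, a stress-induced regulator of growth signalling, fell by 0.53 ± 0.16. The coat proteins SEC24B and SEC31A of ER exit fell by 0.58 ± 0.15 and 0.41 ± 0.12. SRP14 rose by 0.37 ± 0.12 (edgeR adjusted p = 0.047). Outside the pathway lists, SERPINH1, the collagen chaperone HSP47, rose by 0.58 ± 0.15 (edgeR adjusted p = 0.018), the single call among 14 collagen folding helpers. With the libraries assigned by their descriptions none of these calls held, as no gene of the table passed. Whether they held with the heifer block is not given here.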

How the data were processed

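RNA of 25 endometrium and 27 conceptus samples was sequenced from stranded mRNA libraries, per the labels' protocols. The authors deposited 1 table of whole-number read counts per gene. HISAT2, StringTie, edgeR and the build UMD3.1 are named in the submitters' processing notes, while the sources used here give no versions, settings, strand use in counting or gene annotation. Another 1020 lines of the table were empty. Gene symbols were matched to RefSeq by name, and 34 of 34 matched, 11 of them overlapping another gene there. No sequence or coordinate was used.

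From the counts, CPM with TMM scaling within each tissue and edgeR 4.0.16 quasi-likelihood fits in R 4.3.3 were computed. Genes were kept by filterByExpr (minimum count 10, minimum total 15) on the groups, and p-values were adjusted by Benjamini-Hochberg over all genes tested, with calls at 0.05. SE is the log2 difference divided by the root of F. The 5 endometrium groups shared a fit, as did the 3 conceptus groups with the sample sheet as a covariate. Conceptuses of the same heifer were treated as separate samples, except where a heifer block is named. The fits were also run on simulated data with 200 changed genes, drawn without shared heifers. The outcome of that run is not given here, so it carries no weight for the results. DESeq2 1.42.0, limma 3.58.1, other scalings, filters, covariates, sample assignments and leaving out each replicate were alternatives.

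The members and gene lists were chosen with earlier results of these data known. Named were all called members, the 3 with the smallest p where none was called, up to 3 called genes of each further list and up to 2 of each marker list. Conceptuses of the same heifer are paired by the animal number in their titles, with a consensus correlation of 0.295 over 27 libraries. Nothing says that endometrium samples are more than 1 piece per heifer, and p-values measure the spread between these samples. Replicate numbers only name samples.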

Additional observations from a re-analysis of the deposited data

Results flagged for a closer look

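The 10 members called in any comparison and the summed level of all 34 were checked in each group of 5 to 10 samples for a library that stands apart from the rest. Of 88 groups 8 had such a library, and chance alone would give about 4.4. In P-SF replicate 5, PDIA3 was at 719.7 CPM with the other P-SF libraries at 487.8 to 528.9, and MANF was at 76.48 CPM with the others at 46 to 52.39. In P-SF replicate 4, EDEM1 was at 74.31 CPM with the others at 59.65 to 63.05. In NP-SF replicate 5, SDF2L1 was at 5.172 CPM with the others at 3.9 to 4.268, and ATF6 was at 135.1 CPM with the others at 111.4 to 118.2. XBP1 was at 233 CPM in NP-HF replicate 5, where the others were at 184.6 to 197. EDEM1 was at 208.9 CPM in C-HF-short replicate 7, where the others were at 125.7 to 156.5. The summed level of the 34 members was 6390 CPM in NP-IF replicate 5 and 5673 to 5839 in the other NP-IF libraries. In all 8 cases the library was the highest of its group.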

How the results depend on the processing

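Between P-HF and NP-HF the number of members called went from 8 to 5 with only the compared groups fitted, and to between 6 and 9 with a replicate left out. For P-SF against NP-SF it went from 2 to 0 with only the compared groups fitted, to 1 with P-HF replicate 1 and P-SF replicate 5 both left out, and to between 1 and 2 with a replicate left out. The same exclusion of both libraries gave 1 call for P-SF against P-HF. For C-SF against C-HF-long it went from 2 to 4 with DESeq2 or without the sheet covariate, to 0 with the libraries assigned by description, and to between 2 and 4 with a replicate left out (4 without C-SF replicate 7, C-SF replicate 8 or C-HF-long replicate 1). The length slope gave 3 calls without the sheet covariate. PDIA3 in C-SF against C-HF-short turned to 0.0023 with assignment by description, and the SPCS2 length slope to 0.0060 without the sheet covariate and to 0.1603 with assignment by description. The causes were not tested. Counts of 0 in the other 6 comparisons were 0 under each alternative run. Genes called over the whole table moved too, from 798 to 425 without P-SF replicate 5 and to 1210 with DESeq2 for P-SF against NP-SF, and from 1454 to 2217 with DESeq2 for C-SF against C-HF-long, where leaving out a replicate gave 629 to 2110. Over the alternatives it reached up to 634 genes for P-SF against P-HF, 45 for the interaction, 125 for C-SF against C-HF-short and 417 for length. Members with a higher conceptus level went from 27 to 31 with joint scaling.

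With the heifer as a replicate block (random, limma-voom), 2 members passed for C-SF against C-HF-long, EDEM1 at -0.52 and PDIA3 at -0.75 (limma adjusted p = 0.033 and 0.037), while the genes called went from 934 by limma-voom without the block to 424. The block changed no other member count. The search of promoters and proteins for motifs was not run.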
